A study of Mus musculus with 4 samples.

Results

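Cholesterol and fatty acid synthesis were followed through 37 listed genes: 18 enzymes of sterol synthesis, 5 regulators of the SREBP pathway, 10 genes of fatty acid synthesis, elongation and desaturation, and 4 acyl-CoA synthetases and sterol esterification genes. A gene counted as measured where the 430A array has a probe set annotated to it alone, and it was then represented by its probe set of highest mean log2 signal. This gave 32 measured members of 12393 measured genes: 17 sterol enzymes, 4 regulators, all 10 fatty acid genes and 1 acyl-CoA synthetase. Acat2, Insig1, Acsl1, Acsl3 and Soat1 were not analysed here.

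The study hybridised 4 arrays, 1 each of whole testis and isolated seminiferous tubules from adult W/Wv males and from adult XX/Sry males. W/Wv males, here a purchased WB by B6 cross, carry mutations of the receptor kinase gene Kit and have testes poor in germ cells. XX/Sry males have an XX karyotype and a transgene for Sry, the testis-determining gene, and their testes lose germ cells as well. The tubules had been freed of the cells between them with 5 mg/ml collagenase for 40 min at 37 °C. The sources used here do not give the promoter of the transgene, the strain of the XX/Sry males or the number of animals behind each array. A genotype ratio therefore also holds any difference of strain.

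Cholesterol is built from acetyl-CoA through mevalonate, farnesyl diphosphate, squalene and lanosterol, and the genes of this route share a control: when membrane sterol is low, SCAP carries the SREBP transcription factors out of the endoplasmic reticulum to be cut and activated, and INSIG proteins hold them back when sterol is high. SREBP-1c, from Srebf1, acts mainly on fatty acid genes, and SREBP-2, from Srebf2, mainly on sterol genes. In the testis, Leydig cells use cholesterol as the substrate of testosterone, and Sertoli cells and germ cells need sterols and polyunsaturated fatty acids for their membranes.

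Values are MAS5 signals on a linear scale, and a signal of one probe set cannot be set against that of another. Signals are given with W/Wv first and XX/Sry second throughout. The median signal over all probe sets was 183 and 172 in whole testis and 157 and 159 in tubules, and the highest of 27 bacterial control probe sets, used as a background bound, was 76.3 and 63.9 in whole testis and 46.1 and 61.0 in tubules. All 32 members lay above this bound on all 4 arrays. The Y chromosome gene Eif2s3y (795 and 9.5 in whole testis, 580.3 and 28.2 in tubules) and Xist (131 and 3099, 76.7 and 1002) matched the genotype labels. All 9 Leydig cell markers and 15 of 17 Sertoli cell markers measured were above the bound on every array, against 5 of 19 germ cell markers, of which 3 and 13 were at or below it in whole testis and 10 and 11 in tubules.

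With 1 array per group there is no replicate spread. A gene was called where it differed at least 2-fold the same way in both pairs of arrays. The design text sets this rule for the genotype comparison, and it was applied to preparation likewise. As a measure of error, an additive model of genotype and preparation was fitted to the log2 signals of all 22626 probe sets with limma. It has 1 residual degree of freedom, the disagreement between the pairs. limma draws this error towards that of probe sets of similar signal, with a prior of 9.98 degrees of freedom. An SE given below therefore comes mostly from other probe sets, and less from the gene's own 2 pairs. Where tubules and whole testis were taken from the same males, that error leaves out how males differ.

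**Figure D1:**
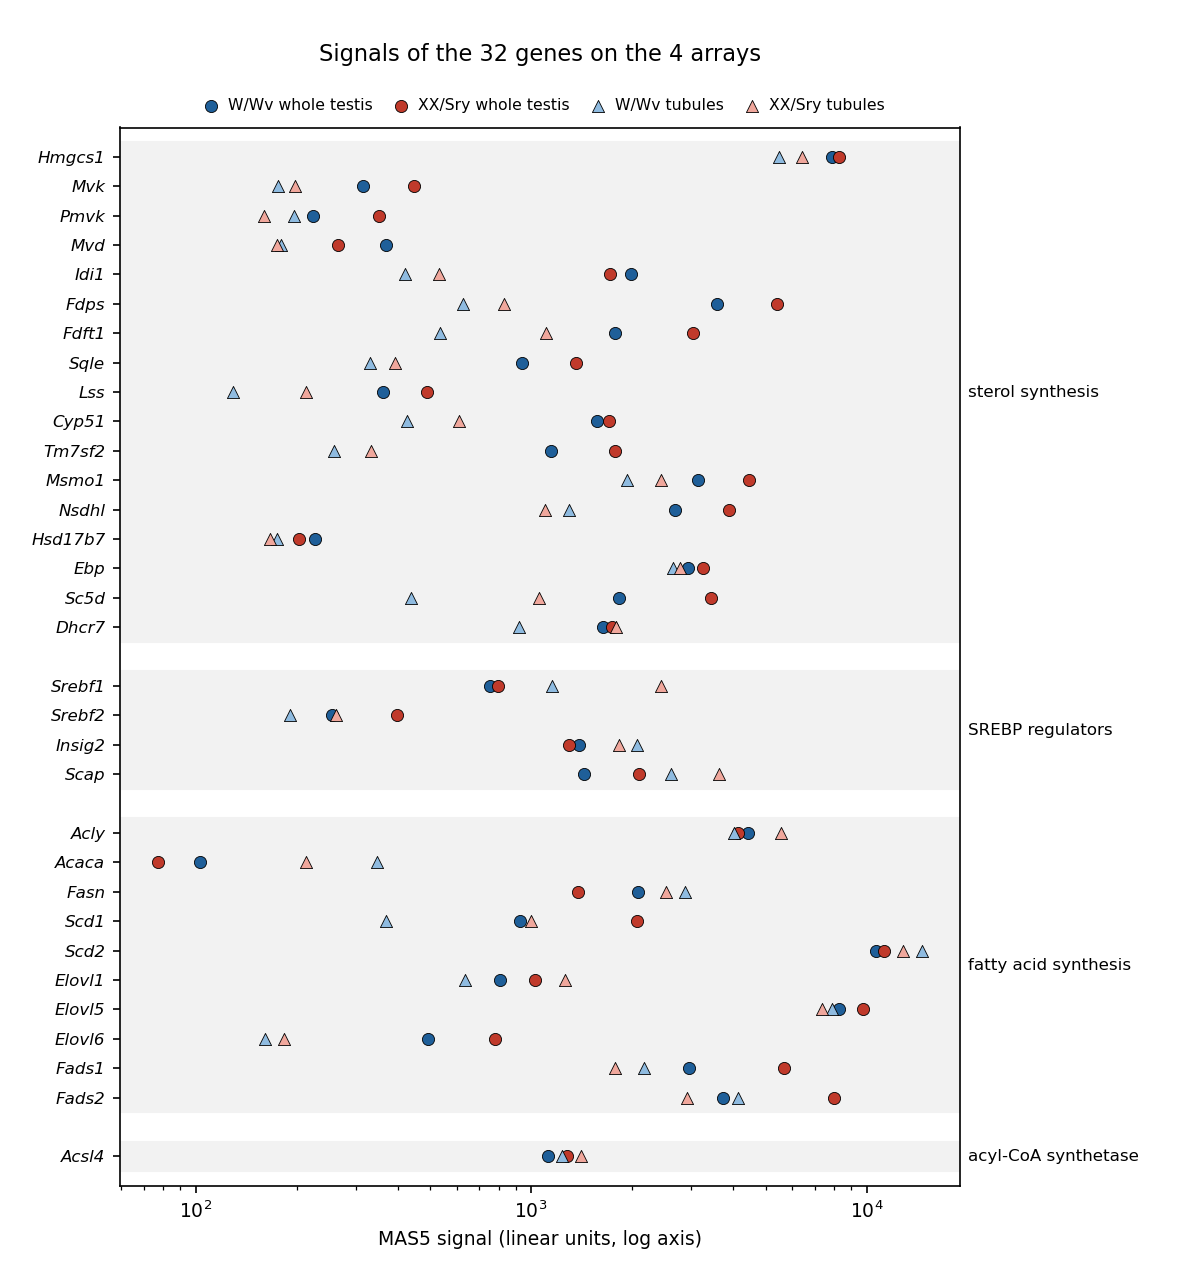
MAS5 signals of the 32 measured genes (horizontal log axis) on each of the 4 arrays, 1 symbol per array, with genes grouped by role. For 9 sterol enzymes, among them Fdps, Tm7sf2 and Sc5d, both tubule symbols lie at least 2-fold to the left of the whole testis symbols of the same genotype, and for Acaca both lie to the right.

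Tubules were set against whole testis in each genotype, to ask which of these genes are carried by cells inside the tubules. A digestion is given for the tubules alone. A preparation ratio therefore also holds any effect of digestion and handling, which cannot be told apart from the place of the cells here. Genes of sterol synthesis were lower in tubules: 9 of 17 enzymes were at least 2-fold lower in both genotypes, 0 were higher and 8 were neither. The group's median log2 ratio was -1.06 (W/Wv) and -1.19 (XX/Sry), beside -0.15 and -0.02 over all genes. The largest drop was that of Fdps, which makes farnesyl diphosphate, at 5.73-fold in W/Wv and 6.53-fold in XX/Sry. The regulators and the fatty acid genes did not follow as groups: 0 of 4 and 2 of 10 were lower, and Acaca, the carboxylase that opens fatty acid synthesis, was 3.35-fold and 2.76-fold higher.

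Over all 32 members, 11 were at least 2-fold lower in tubules in both genotypes, 1 was higher and 20 were neither. Of all 12393 genes, 5.74% were lower and 1.32% higher by the same rule; of the 8065 genes above the bound on all arrays, as the members are, 2.84% were lower and 0.645% higher. By the additive fit 9 members were lower at an adjusted p under 0.05 and 0 were higher, where 0.977% and 0.239% of all probe sets were. At 1.5-fold in both genotypes 14 members were lower, beside 12.1% of all genes and 8.01% of those above the bound, and 3 were higher, beside 5.03% and 4.90%. The 2 genotype pairs share no array. Across the 32 members, which are not independent replicates, their log2 ratios had a Pearson correlation of 0.86, beside 0.45 over the 8065 genes.

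Among the early enzymes of the mevalonate route, Idi1, which isomerises the isoprenoid building block, had signals of 1986 and 1718 in whole testis against 420.1 and 533 in tubules. Fdps had 3591 and 5421 in whole testis and 627 and 830.5 in tubules. Fdft1, squalene synthase, had 1779 and 3029.5 against 534 and 1106. In each case both tubule arrays lay below both whole testis arrays. The additive change on the log2 scale was -1.97 ± 0.26 (SE) for Idi1 (limma, adjusted p = 0.00544), -2.61 ± 0.24 for Fdps (adjusted p = 0.00125) and -1.59 ± 0.25 for Fdft1 (adjusted p = 0.0113). A further probe set of Idi1 and one of Fdft1, both above the bound, were also lower in tubules, by -1.31 and -1.89 and by -1.52 and -2.03 in log2 ratio. The remaining probe sets of Fdps and Fdft1 were not above the bound on all arrays, and averaging them in turned the XX/Sry ratios to 0.43 for Fdps and 0.20 for Fdft1.

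The other early enzymes changed less. Mvk, mevalonate kinase, had 316 and 447 in whole testis and 176 and 198 in tubules, 1.80-fold and 2.25-fold lower. Mvd, mevalonate diphosphate decarboxylase, had 368 and 266 against 180.0 and 175, 2.04-fold and 1.52-fold lower. Neither reached 2-fold in both genotypes, and their adjusted p-values in the limma fit were 0.242 and 0.375. Hmgcs1, which makes the HMG-CoA that enters the route, was 1.43-fold and 1.29-fold lower by its brightest probe set. A further Hmgcs1 probe set was 1.32-fold higher in W/Wv tubules and 2.09-fold lower in XX/Sry tubules, and the others were lower in both genotypes. Pmvk, phosphomevalonate kinase, was 1.14-fold (higher after median centring) and 2.21-fold lower.

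From squalene on, the enzymes that close and trim the sterol rings were lower as well, with 6 of 10 past 2-fold in both genotypes. Sqle, squalene epoxidase, had signals of 939 and 1358 in whole testis and of 331 and 392 in tubules. Lss, which folds squalene epoxide into lanosterol, had 361 and 488 against 129.5 and 213. Cyp51, the lanosterol demethylase, had 1574 and 1708 against 427 and 611. No tubule signal of these enzymes reached the lower whole testis signal. The additive change was -1.65 ± 0.27 (SE) for Sqle (limma, adjusted p = 0.0161) and -1.68 ± 0.26 for Cyp51 (adjusted p = 0.0113), while Lss, 2.78-fold and 2.29-fold lower, had an adjusted p of 0.121. A second Lss probe set was 2.06-fold and 1.60-fold lower, and with averaged probe sets Lss no longer passed 2-fold in W/Wv (-0.80).

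Tm7sf2, a sterol reductase, had 1148 and 1777 in whole testis and 259 and 334 in tubules. It fell by 2.28 ± 0.27 (SE) on the log2 scale (limma, adjusted p = 0.00328), the largest additive change among members after that of Fdps. Sc5d, the desaturase near the end of the route, had 1833 and 3448 against 438 and 1055 and fell by 1.89 ± 0.25 (adjusted p = 0.00504). A dimmer Sc5d probe set had log2 ratios of 0.05 (W/Wv) and -1.51 (XX/Sry). The X-linked Nsdhl, a sterol dehydrogenase, had 2693 and 3895 against 1296 and 1099.6, 2.08-fold and 3.54-fold lower (limma, adjusted p = 0.027); after median centring of the arrays it passed neither the 2-fold rule nor the limma fit.

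The remaining enzymes of this stretch showed smaller ratios. Msmo1, methylsterol monooxygenase, had 3136 and 4466 in whole testis and 1928 and 2442 in tubules, 1.63-fold and 1.83-fold lower (limma, adjusted p = 0.169). The X-linked Ebp, the sterol isomerase, had 2925 and 3262 against 2655 and 2772, 1.10-fold (higher after median centring) and 1.18-fold lower. Hsd17b7, a ketosteroid reductase of the route, was 1.30-fold and 1.21-fold lower. Dhcr7, the last reductase before cholesterol, was 1.78-fold lower in W/Wv and 1.02-fold higher in XX/Sry (lower there after quantile normalisation).

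**Figure D2:**
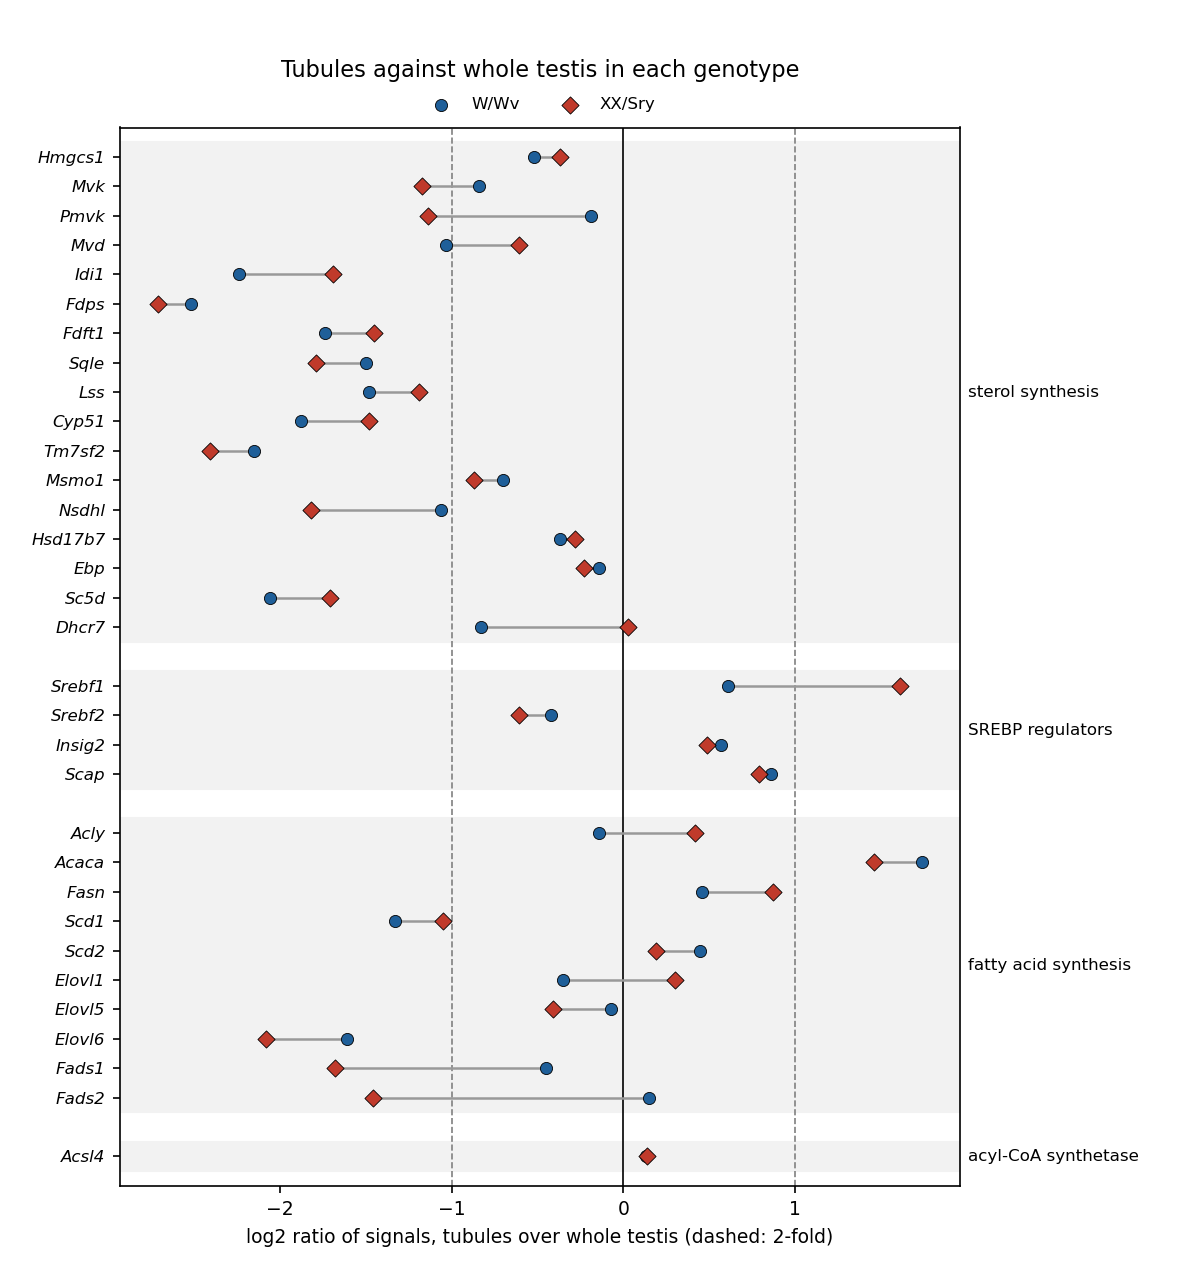
Log2 ratio of signals in tubules over whole testis (horizontal axis; dashed lines at 2-fold) for each measured gene, 1 circle for W/Wv and 1 diamond for XX/Sry, sterol enzymes in the order of the route. The 9 called sterol enzymes, Scd1 and Elovl6 have both symbols beyond the left dashed line, and Acaca alone has both beyond the right one.

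The SREBP regulators had a median log2 ratio above 0, at 0.59 (W/Wv) and 0.64 (XX/Sry), with 0 of 4 past 2-fold in both genotypes. Srebf1 had signals of 756 and 799 in whole testis against 1152 and 2436, 1.52-fold and 3.05-fold higher (limma, adjusted p = 0.107). Scap had 1437 and 2096 against 2603 and 3626, 1.81-fold and 1.73-fold higher (adjusted p = 0.145). Insig2 had 1390.1 and 1299 against 2064 and 1826, 1.48-fold and 1.41-fold higher (adjusted p = 0.357). For these regulators both tubule signals lay above both whole testis signals. Srebf2 had ratios below 0, at 255 and 398 in whole testis and 191 and 262 in tubules, 1.33-fold and 1.52-fold lower (adjusted p = 0.593). A second Srebf2 probe set was 2.31-fold and 1.34-fold lower.

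Fatty acid genes split. Their median log2 ratio was -0.10 (W/Wv) and -0.11 (XX/Sry), and 0.12 and 0.00 after median centring. Acaca had signals of 103 and 77.3 in whole testis and of 346 and 213 in tubules; its additive change was 1.60 ± 0.46 (SE) on the log2 scale (limma, adjusted p = 0.143), and its whole testis signals lay close to the background bound. Fasn, the fatty acid synthase, was 1.38-fold and 1.82-fold higher in tubules. Scd2, a desaturase that makes monounsaturated fatty acids, was 1.37-fold and 1.14-fold higher by its brightest probe set, and by its other probe sets 2.03-fold and 1.45-fold, and 2.86-fold and 3.25-fold, higher.

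Its paralogue Scd1 ran the opposite way, with 929 and 2065 in whole testis and 368 and 1000.3 in tubules. It was 2.52-fold and 2.06-fold lower (limma, adjusted p = 0.0546), and it no longer passed the 2-fold rule when the arrays were centred or the probe sets averaged. Elovl6, which elongates palmitate, had 491 and 778 against 161 and 183. It fell by 1.85 ± 0.34 (SE) on the log2 scale (limma, adjusted p = 0.0261). After median centring it still passed the 2-fold rule, but its limma adjusted p was no longer under 0.05. A dimmer Elovl6 probe set was 1.48-fold and 5.23-fold lower. Scd1 and Elovl6 were the fatty acid genes past 2-fold downwards in both genotypes by the chosen probe sets. Acly, which supplies cytosolic acetyl-CoA, Elovl1 and Elovl5 were within 1.34-fold in both genotypes by the chosen probe sets, and the W/Wv ratios of Acly and Elovl5 turned above 0 after median centring. Other probe sets above the bound went further: one of Acly was 2.43-fold higher in W/Wv tubules, one of Elovl5 was 1.78-fold lower in XX/Sry tubules, and one of Elovl1 was 1.68-fold and 1.42-fold lower. The X-linked acyl-CoA synthetase gene Acsl4 was nearly level by its brightest probe set (1124 and 1275 in whole testis, 1234 and 1409 in tubules), but 2 dimmer probe sets were 1.79-fold and 2.49-fold, and 2.33-fold and 4.88-fold, higher in tubules.

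Leydig cell and macrophage markers, of cells that lie between the tubules, were lower in tubules as the sterol enzymes were, and endothelial markers were not. The 2-fold rule placed 6 of the 9 Leydig cell markers lower in tubules and 0 higher, with medians of -2.20 (W/Wv) and -1.36 (XX/Sry); their summed signal was 65623 and 85095 in whole testis and 16109 and 39709 in tubules. Cyp11a1, the enzyme that starts steroid synthesis from cholesterol, had 5952 and 9195 against 1172 and 1566, and none of the 9 markers was at or below the bound on any array. Of 15 macrophage markers, 12 were lower, with medians of -1.61 and -2.33 and summed signals of 15645 and 19490.2 against 6303 and 4687. Endothelial cell markers had medians of 0.42 and 0.59, with 2 of 12 higher and 0 lower at 2-fold in both genotypes. Of these 12, 8 were above the bound on every array. The 2 higher ones were Pecam1, below the bound in both whole testis arrays, and Vwf, below it in W/Wv whole testis. Of the cells inside the tubules, Sertoli cell markers had medians of 0.59 and 0.20, with 0 of 17 past 2-fold in both genotypes. Germ cell markers had medians of -2.14 (W/Wv) and 0.19 (XX/Sry), with 2 of 19 lower in both genotypes. These 2, Tex101 and Odf1, were below the bound on both XX/Sry arrays. The summed signal of the germ cell markers was 7256 and 1522 in whole testis and 1427 and 1579 in tubules. Whole tissue RNA cannot tell fewer cells of a type from less RNA per cell, and the part of these cells in the ratios of the sterol enzymes was not tested.

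**Figure D3:**
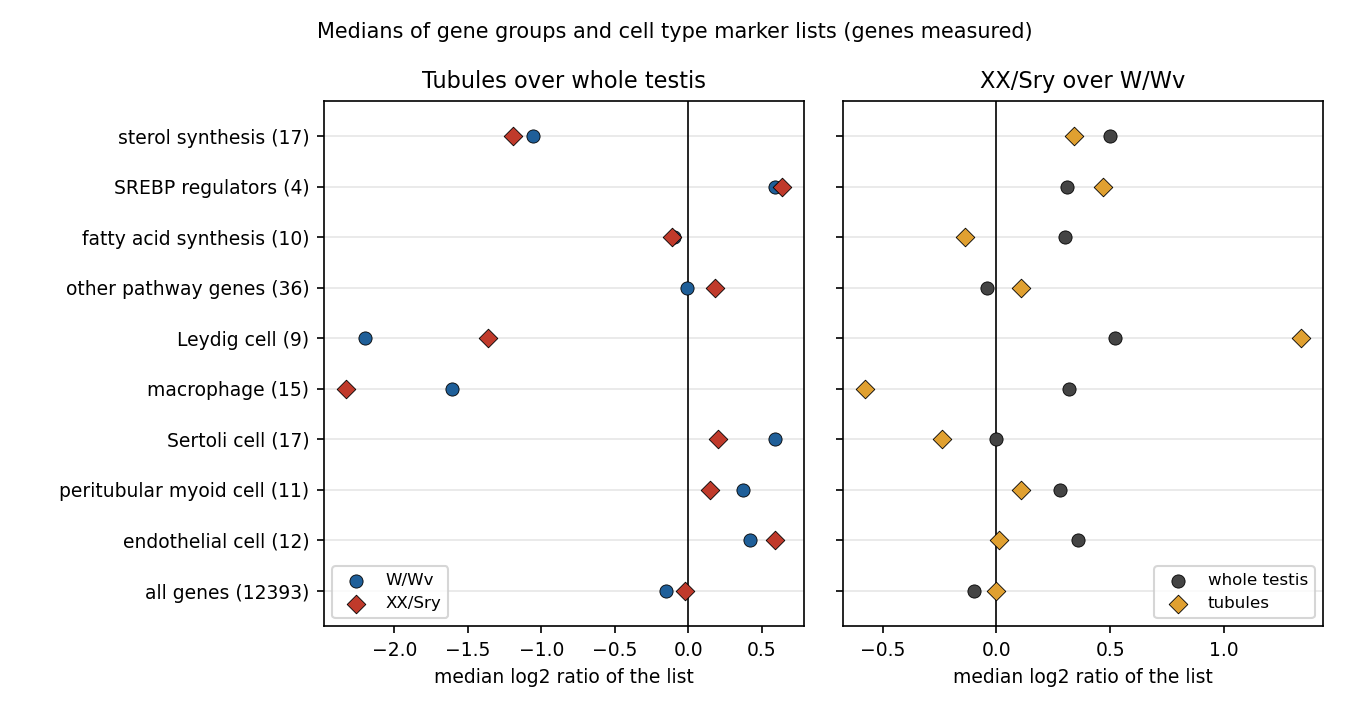
Median log2 ratio of the gene groups and marker lists named on the axis (number of measured genes in brackets). Tubules over whole testis are on the left, with a circle for W/Wv and a diamond for XX/Sry. XX/Sry over W/Wv is on the right, with a circle for whole testis and a diamond for tubules. Not drawn are the acyl-CoA synthetase group and the germ cell, adipocyte and epididymis lists. The medians of these lists for tubules over whole testis (W/Wv and XX/Sry) were -2.14 and 0.19 (germ cell), -0.80 and -0.18 (adipocyte) and -0.46 and -1.41 (epididymis). On the left, sterol enzymes (-1.06 and -1.19), Leydig markers (-2.20 and -1.36) and macrophage markers (-1.61 and -2.33) lie on the same side of 0, and the SREBP regulators (0.59 and 0.64) on the other.

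Promoter sequence was compared because the sterol enzymes moved together. RefSeq promoter windows on GRCm38.p6, from 250 bases before to 50 after the start, were at hand for 31 of the 37 listed genes. Of these, 26 were measured, and the others were Acat2, Insig1, Acsl1, Acsl3 and Soat1. The core of the sterol regulatory element bound by SREBP was searched as TCACNCCA, the CCAAT box bound by NF-Y as CCAAT and the GC box bound by Sp1 as GGGCGG, each on both strands. CCAAT was found in 25 of the 31 listed genes (80.6%) and in 14 of 15 listed sterol enzymes (93.3%). It was found in 42.3% of the 9887 measured genes with a window and in 41.1% of all 27025 genes with one. GGGCGG was found in 26 of 31 (83.9%), against 61.0% of those measured and 38.2% of all. The sterol element core was found in 4 of 31 (12.9%), among them the unmeasured Acsl1, against 4.73% and 4.97%. A match is a run of letters and not a shown binding site, and genes with more than 1 window had more room for one.

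Of the 11 members lower in tubules in both genotypes, 7 have a window. CCAAT was found in 6 of these 7 and in 19 of the 24 other listed members, and the sterol element core in 0 of 7 and 4 of 24. Only exact letters were searched, so a sterol element spelled otherwise would be missed. The count of 0 of 7 therefore does not show that these genes lack one. The 120 bases before the start of those 7 are shown so that the position of the boxes can be compared, with whole matches to any of the motifs, read on either strand, in capitals.
Idi1, chr13:8885486-8885605, plus strand: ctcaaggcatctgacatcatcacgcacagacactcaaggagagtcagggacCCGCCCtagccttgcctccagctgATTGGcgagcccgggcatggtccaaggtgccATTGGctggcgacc
Lss, chr10:76531485-76531604, plus strand: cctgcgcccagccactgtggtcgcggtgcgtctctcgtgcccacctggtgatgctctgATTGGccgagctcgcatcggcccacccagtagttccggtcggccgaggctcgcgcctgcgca
Cyp51, chr5:4104698-4104817, minus strand: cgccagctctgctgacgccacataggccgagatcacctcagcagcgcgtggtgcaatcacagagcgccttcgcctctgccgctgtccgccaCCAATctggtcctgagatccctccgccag
Tm7sf2, chr19:6067851-6067970, minus strand: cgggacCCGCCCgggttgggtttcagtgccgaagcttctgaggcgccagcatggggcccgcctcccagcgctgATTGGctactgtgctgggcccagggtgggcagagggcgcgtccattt
Nsdhl, chrX:72918401-72918520, plus strand: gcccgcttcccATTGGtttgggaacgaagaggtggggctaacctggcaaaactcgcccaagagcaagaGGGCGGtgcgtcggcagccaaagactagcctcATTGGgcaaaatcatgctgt
Sc5d, chr9:42264301-42264420, minus strand: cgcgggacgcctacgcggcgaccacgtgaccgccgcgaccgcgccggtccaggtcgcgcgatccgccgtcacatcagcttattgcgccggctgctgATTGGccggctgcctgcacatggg
Elovl6, chr3:129532266-129532385, plus strand: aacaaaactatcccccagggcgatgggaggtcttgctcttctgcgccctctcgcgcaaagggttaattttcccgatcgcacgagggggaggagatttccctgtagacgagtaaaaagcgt

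The sterol enzymes of this set each held a CCAAT box within these bases, and Elovl6, the member of the fatty acid group, held no match to any motif. The measured members with the sterol element core were Hmgcs1, Msmo1 and Srebf2, shown over 120 bases around it with the core as the run of 8 capitals.
Hmgcs1, chr13:119690174-119690293, plus strand: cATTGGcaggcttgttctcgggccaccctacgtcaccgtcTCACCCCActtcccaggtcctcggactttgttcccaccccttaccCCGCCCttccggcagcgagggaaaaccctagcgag
Msmo1, chr8:64733676-64733795, minus strand: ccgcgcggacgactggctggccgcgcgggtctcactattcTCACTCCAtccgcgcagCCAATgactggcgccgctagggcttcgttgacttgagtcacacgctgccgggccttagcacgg
Srebf2, chr15:82147067-82147186, plus strand: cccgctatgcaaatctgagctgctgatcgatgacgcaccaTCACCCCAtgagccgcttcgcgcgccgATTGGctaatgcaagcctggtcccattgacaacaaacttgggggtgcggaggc
By the chosen probe sets these 3 genes were between 1.29-fold and 1.83-fold lower in tubules in the 2 genotypes, none past 2-fold. Other probe sets above the bound differed. One of Hmgcs1 was 1.32-fold higher in W/Wv tubules and 2.09-fold lower in XX/Sry tubules, and one of Srebf2 was 2.31-fold and 1.34-fold lower.

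XX/Sry was set against W/Wv in each preparation, which asks how these genes differ between the genotypes. Members were mostly higher in XX/Sry by amounts under 2-fold: 1 of 32 passed 2-fold in both preparations (Scd1, higher), 0 were lower and 31 were neither. The median log2 ratio of the members was 0.39 in whole testis and 0.23 in tubules, beside -0.10 and 0.00 over all genes, and that of the 17 sterol enzymes was 0.50 and 0.34 (0.48 and 0.18 with averaged probe sets). Scd1 was 2.22-fold (whole testis) and 2.72-fold (tubules) higher, and Sc5d 1.88-fold and 2.41-fold. Fads1 and Fads2, the desaturases of polyunsaturated fatty acid synthesis, were higher in whole testis and lower in tubules.

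The share of all genes past 2-fold in both preparations was 1.98% higher and 3.22% lower, and 0.955% and 0.484% among genes above the bound on all arrays, so the count of 1 in 32 members is near the background. At 1.5-fold 3 members were higher (Fdft1, Sc5d and Scd1), beside 5.04% of all genes and 3.62% of those above the bound, and 0 were lower, beside 7.46% and 3.37%. Ratios above 0 in both preparations were found in 19 of 32 members and below 0 in both in 5, against 2096 and 2408 of the 8065 genes above the bound. In the limma fit 0 members had an adjusted p under 0.05, where 0.110% of probe sets were higher and 0.0398% lower. An unadjusted p under 0.05 in that fit was found for 4 of 32 members (Scd1, Sc5d, Fdft1 and Elovl1), beside 830 of the 8065 genes above the bound. Across members the log2 ratios of whole testis and tubules had a Pearson correlation of 0.32, beside 0.26 over the genes above the bound.

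Scd1 differed by 1.30 ± 0.26 (SE) on the log2 scale in the additive fit, with a 95% interval of 0.73 to 1.86 and an adjusted p of 0.0934 (limma). Its signals, given above, were higher in XX/Sry within each preparation, though the XX/Sry tubules (1000.3) lay close to W/Wv whole testis (929). A dimmer Scd1 probe set was 1.84-fold higher in whole testis and level in tubules (93.0 and 91.2), and with the mean of both probe sets Scd1 did not pass. Adipocytes are rich in Scd1; of 12 adipocyte markers measured, 5 were above the bound on every array, their medians were -0.48 and 0.39, and Adipoq and Pparg were at or below the bound on 3 and 4 arrays. Cd36, a fatty acid transporter on that list, had XX/Sry signals 2.91-fold and 2.97-fold those of W/Wv. Of the 12 markers, 9 had ratios of XX/Sry over W/Wv below 0 in whole testis and 3 in tubules. The part of adipocytes in the Scd1 ratio was not tested.

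Among sterol enzymes, Sc5d differed by 1.09 ± 0.25 (SE; limma, adjusted p = 0.161) and Fdft1 by 0.91 ± 0.25 (adjusted p = 0.256) on the log2 scale. Both were higher in XX/Sry within each preparation, Fdft1 by 1.70-fold and 2.07-fold, and a further Fdft1 probe set by 2.03-fold and 1.42-fold. The dimmer Sc5d probe set was 3.16-fold higher in whole testis and 1.07-fold higher in tubules. After median centring Sc5d passed 2-fold in both preparations. Of the 17 enzymes, 12 had ratios above 0 in both preparations (Hmgcs1 turned in whole testis after quantile normalisation), among them Fdps (1.51-fold and 1.33-fold), Tm7sf2 (1.55-fold and 1.29-fold), Lss (1.35-fold and 1.64-fold) and Sqle (1.45-fold and 1.18-fold). With averaged probe sets Cyp51 turned below 0 in both preparations (-0.73 and -0.66), Fdps in whole testis (-0.67), and Mvk (-0.88) and Hmgcs1 (-0.04) in tubules. Mvd and Hsd17b7 were below 0 in both, but a second Mvd probe set was 1.32-fold higher in XX/Sry tubules. The interval of the additive fit for Fdps ran from -0.03 to 1.03 on the log2 scale and so includes 0.

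Leydig cell markers were also higher in XX/Sry, with medians of 0.52 (whole testis) and 1.34 (tubules), 2 of 9 past 2-fold in both preparations and 0 lower. Their summed signal, given above, was higher in XX/Sry in both preparations. Macrophage markers had medians of 0.32 and -0.58. The part of these cells in the ratios of the sterol enzymes was not tested.

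**Figure D4:**
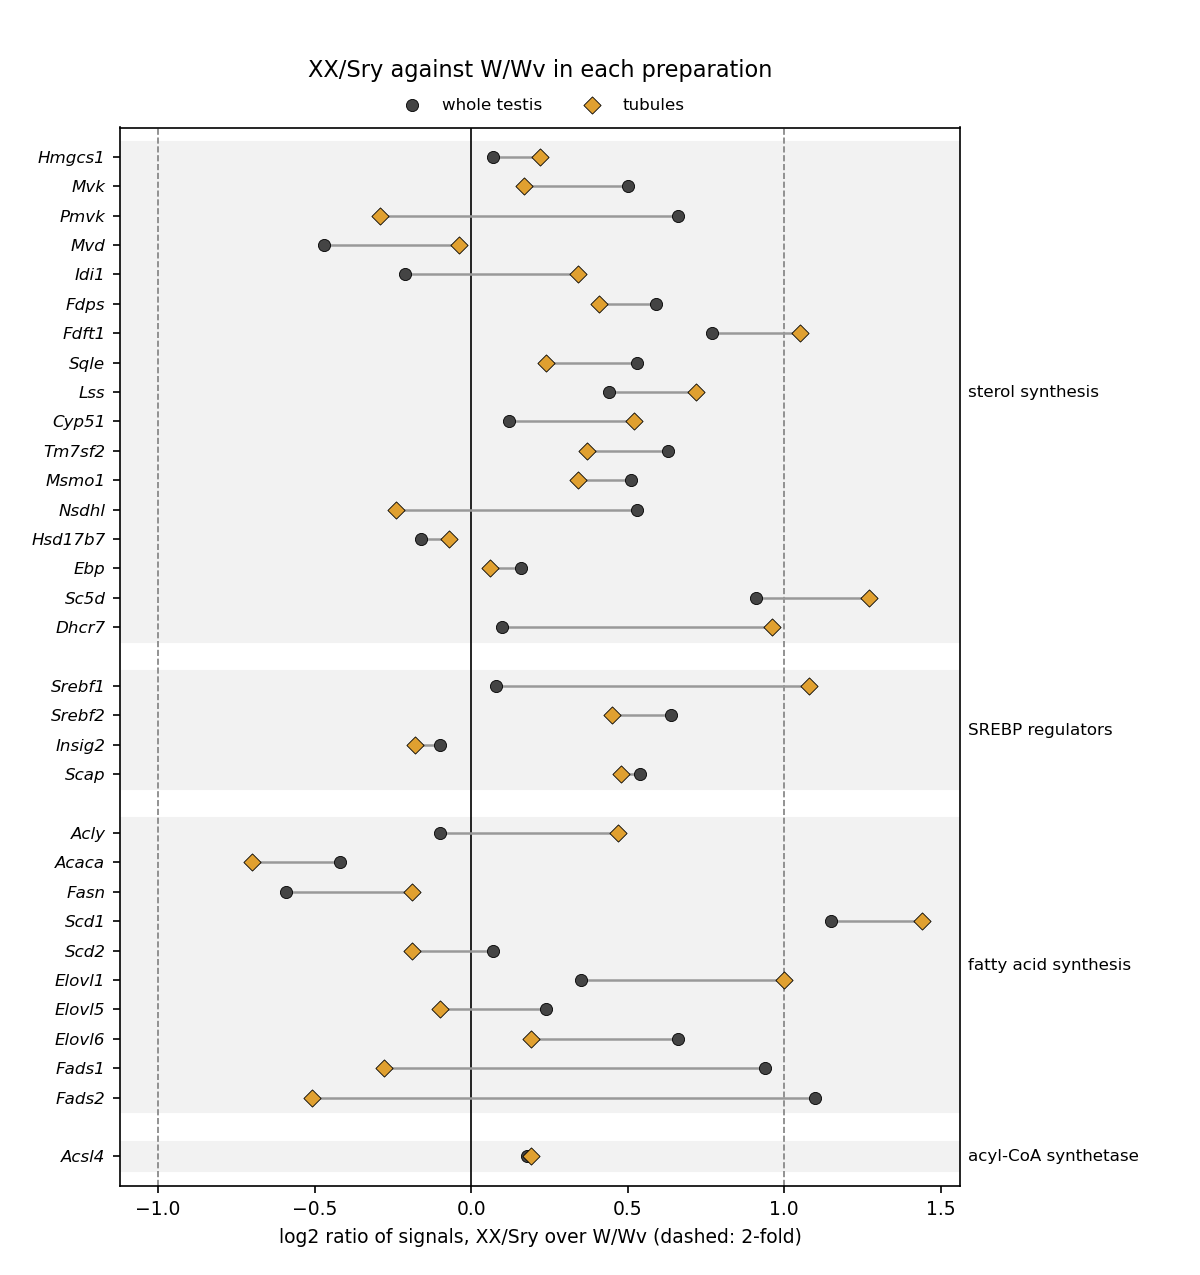
Log2 ratio of signals in XX/Sry over W/Wv (horizontal axis; dashed lines at 2-fold) for each measured gene, 1 circle for whole testis and 1 diamond for tubules. Scd1 alone has both symbols beyond the right dashed line, 12 of 17 sterol enzymes have both symbols above 0 (not Hmgcs1 after quantile normalisation, nor Cyp51, Fdps, Mvk and Hmgcs1 with averaged probe sets), and the symbols of Fads1 and Fads2 lie on opposite sides of 0.

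Regulators differed by less than 2-fold between genotypes except Srebf1 in tubules. Srebf1 was 1.06-fold (whole testis) and 2.11-fold (tubules) higher in XX/Sry (limma, adjusted p = 0.624). Scap was 1.46-fold and 1.39-fold higher (adjusted p = 0.589) and Srebf2 1.56-fold and 1.37-fold higher (adjusted p = 0.746), but a second Srebf2 probe set was 1.33-fold lower in whole testis. Insig2 was 1.07-fold and 1.13-fold lower. The 95% interval of the additive change was -0.02 to 1.04 for Scap and -0.67 to 0.39 for Insig2 on the log2 scale.

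The median of the fatty acid genes was 0.30 (whole testis) and -0.14 (tubules). Fads2, the first desaturase of the polyunsaturated route, had signals of 3744 and 8000.4 in whole testis and of 4144 and 2916 in tubules. Fads1, which acts after it and lies beside it on chromosome 19, had 2961 and 5677 in whole testis and 2164 and 1777 in tubules. For both genes the XX/Sry whole testis array was the highest of the 4 and the XX/Sry tubule array the lowest. Their double ratios, tubules against whole testis of XX/Sry over W/Wv, were 3.04-fold and 2.34-fold, and these 2 of 32 members passed 2-fold, where 14.4% of the genes above the bound did. Srebf1 lay just under 2-fold in the opposite direction, with a genotype ratio of 1.06-fold in whole testis and 2.11-fold in tubules. Fads1 and Fads2 are described because of these values. Elovl1 was 1.28-fold and 1.99-fold higher, Acaca 1.34-fold and 1.62-fold lower and Fasn 1.5-fold and 1.14-fold lower, without a call.

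Members on the X chromosome were read apart because XX/Sry males carry 2 X chromosomes. Nsdhl was 1.45-fold higher (whole testis) and 1.18-fold lower (tubules) in XX/Sry, Ebp 1.12-fold and 1.04-fold higher, and Acsl4 1.13-fold and 1.14-fold higher by its brightest probe set. Over the 402 measured genes of the X chromosome the median log2 ratio was -0.04 and 0.14. None of the 3 members reached 2-fold in either preparation by the chosen probe set, though the dimmer Acsl4 probe sets were 2.29-fold and 2.08-fold higher in XX/Sry tubules.

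Of 49 further genes of these pathways, 36 were measured. In the preparation comparison 1 of 36 was lower at 2-fold in both genotypes, beside 5.74% of all genes, and 0 were higher, beside 1.32%. The medians were -0.01 and 0.18. The one that passed, Stard4, an intracellular cholesterol carrier, had signals of 584 and 479 in whole testis and 230.1 and 174 in tubules, 2.54-fold and 2.76-fold lower. In the genotype comparison 0 of 36 passed in either direction, beside 1.98% of all genes higher and 3.22% lower, with medians of -0.04 and 0.11. By limma 0 of the 36 were called in either comparison. An unadjusted p under 0.05 was found for 7 (preparation) and 6 (genotype) of the 36, beside 1838 and 1159 of the 12393 genes. With the prior variance taken in 20 bins of signal, limma called Stard4 for preparation (adjusted p = 0.0132) and Lpin1 (adjusted p = 0.0388) and Cyb5r3 (adjusted p = 0.0421) for genotype. Under that setting 230 and 57 of the 12393 genes were called for preparation and genotype.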

How the data were processed

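The authors deposited 1 intensity per probe set and array, a linear MAS5 signal computed with Microarray Suite 5.0 per the labels' design text; the submitters' processing notes name MAS5. Detection calls and a scaling target were not used here. Each array had 1 biotin-labelled sample, hybridised for 16 h. Signals were used as deposited, without a pseudocount or a filter. Of 22690 probe sets, 64 controls were set aside; 20380 of the rest had 1 gene symbol in the platform annotation, 691 several and 1555 none, and 20351 matched the RefSeq gene table (GRCm38.p6) by Entrez identifier.

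Folds are ratios of signals; "called" means at least 2-fold the same way in both pairs. The additive fit used limma 3.58.1 in R 4.3.3 (moderated test with a trend on mean signal, two-sided, Benjamini-Hochberg over all 22626 probe sets). The fit was run on simulated data drawn from the same additive model. Such data cannot show how the fit behaves where genotype and preparation interact or where males differ. A prior variance within 20 bins of signal was added as an alternative. Full signals are given for members that passed 1.5-fold in both pairs, for regulators and for X-linked members; Fads1 and Fads2 were added after their values were seen. The members and gene lists were chosen with earlier results of these data known. Alternatives were median centring, quantile normalisation, a constant of 50, the mean of all probe sets, the background bound as a filter, and 1.5-fold. The number of arrays limits the precision.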

Additional observations from a re-analysis of the deposited data

Results flagged for a closer look

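Fads1 and Fads2 differed in the direction of the genotype ratio between preparations: both were higher in XX/Sry whole testis (log2 ratios of 0.94 and 1.10) and lower in XX/Sry tubules (-0.28 and -0.51). The double ratio was -1.22 for Fads1 and -1.60 for Fads2 on the log2 scale. With 1 array per group the difference between preparations was not tested. A second Fads2 probe set gave 0.41 and -0.45, the same directions at a smaller size. Both ratios kept their directions under median centring, quantile normalisation, an added constant and the mean of all probe sets.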

How the results depend on the processing

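The number of members lower in tubules was 9 after median centring, 11 after quantile normalisation, after a constant of 50 was added and over genes above the bound, 14 at 1.5-fold and 7 with the mean of all probe sets; the 9 and the 7 were all among the 11. The 9 left out Nsdhl and Scd1, and the 7 left out Fdft1, Fdps, Lss and Scd1. With that mean Fdps and Fdft1 turned to 0.43 and 0.20 in XX/Sry, since their dim probe sets enter. Members higher in tubules numbered 3 at 1.5-fold (Acaca, Scap and Srebf1) and 1 under the other settings. Members higher in XX/Sry numbered 2 after median centring, 0 with averaged probe sets and 3 at 1.5-fold, against 1 as reported; 0 were lower under any setting. In the limma fit, 0 members were called for preparation without the trend, a setting that called 0 of 22626 probe sets, and between 7 and 10 under the others; the 7, after median centring, left out Nsdhl and Elovl6. For genotype, 1 member (Scd1, adjusted p = 0.0296) was called with the prior variance in 20 bins, added after seeing the data, and 0 under the other settings. The medians over the 32 members kept their sign under all settings, with that for genotype in tubules at 0.09 with averaged probe sets. Median centring moved the median of all genes by 0.22 in W/Wv and 0.11 in XX/Sry for preparation, and quantile normalisation by 0.14 in W/Wv. No paired analysis was possible because each group has 1 array and the labels give no replicate numbers; the additive fit itself compares preparations within genotype and genotypes within preparation.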
